A study of Solanum lycopersicum with 86 samples.

Results

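The first internode of tomato (Solanum lycopersicum) kept in white light was compared between the second and the first day of the light treatment, at the same hour of the day: 9 libraries taken 30 h after the start against 6 libraries taken 6 h after it. Members were chosen by their sample titles, as white light (WL) internodes at 6 or 30 h, and they make up 15 of the 86 libraries of the study. No gene passed the adjusted threshold between the days, and the same kind of test called 1782 genes between hours of the day in a larger set of WL internodes. Moneymaker (MM in the titles) gave 2 libraries at 6 h and 4 at 30 h, and M82 gave 4 at 6 h and 5 at 30 h. The labels state at least 4 biological replicates per group, and the Moneymaker group at 6 h holds fewer here.

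The study grew both cultivars at 20 °C and 70% humidity with 16 h of light and 8 h of dark per day, in WL for 7 days before treatment. Plants then stayed in WL of 200 PAR (photosynthetically active radiation) or had far-red (FR) light added to it, which brought the red to far-red ratio to 0.21. The whole segment between cotyledons and first true leaf was taken at 6, 24, 30 and 48 h, and its pith, the innermost tissue, at 30 and 48 h. None of the plants in the 15 libraries had added far-red light by their titles. The treatment field of the WL Moneymaker samples reads FR, and the titles were followed. The sample titles name the cultivars and no mutant or transgene. Both times fall 24 h apart, so plant age, time since the treatment start and calendar day cannot be told apart.

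An internode lengthens by the division and expansion of its cells. Gibberellin, auxin and brassinosteroids promote that growth, and phytochrome, which senses how much far-red light comes with the red, restrains it in open light. The circadian clock sets the daily timing of many plant genes, so that days are best compared at a matched hour. In bulk samples, fewer cells of a type and less RNA per cell cannot be told apart.

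The identifiers in the deposited table matched none of the reference gene entries (0 of 23050), so genes are given by Solyc identifier alone, without names or roles. Hormone, clock, cell wall and cell type markers could for that reason not be read by name, and the tissue label was not checked against known markers. Gene groups were taken instead from libraries outside the 15: genes that differed under FR between 6 and 30 h and 24 and 48 h (clock-time genes), between lights at 24 and 48 h, between pith and internode under FR, and between cultivars in FR internodes. Each was called with limma at a Benjamini-Hochberg adjusted p below 0.05.

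Of the 15 libraries, 4 went against a label, which was found by averaging the log2 values of such genes in each library. The cultivar score is the mean of the 68 genes higher in Moneymaker minus that of the 83 genes higher in M82. It averaged 1.36 in FR Moneymaker and -1.92 in FR M82 internodes. The libraries labelled M82, 6 h, replicates 1 and 5 scored 1.13 and 1.48, and the library labelled M82, 30 h, replicate 1 scored 1.40, all on the Moneymaker side. The library labelled Moneymaker, 30 h, replicate 3 scored -1.84, on the M82 side. The light score is the mean of the 162 genes raised under FR minus that of the 209 lowered, and it averaged 0.98 under FR and -0.88 in WL at 24 and 48 h. The library labelled M82, 30 h, replicate 1 scored 1.08 on it, at the FR level. The other 14 libraries lay between -1.20 and -0.06, and the highest of these, M82, 30 h, replicate 4, lay close to the midpoint. All 15 matched the hour of the day in their time label by the clock-time genes, which do not separate 6 h from 30 h. Labels were kept as given. The counts of each comparison, the list medians and the 4 genes of smallest p given below were also computed without these libraries.

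**Figure D1:**
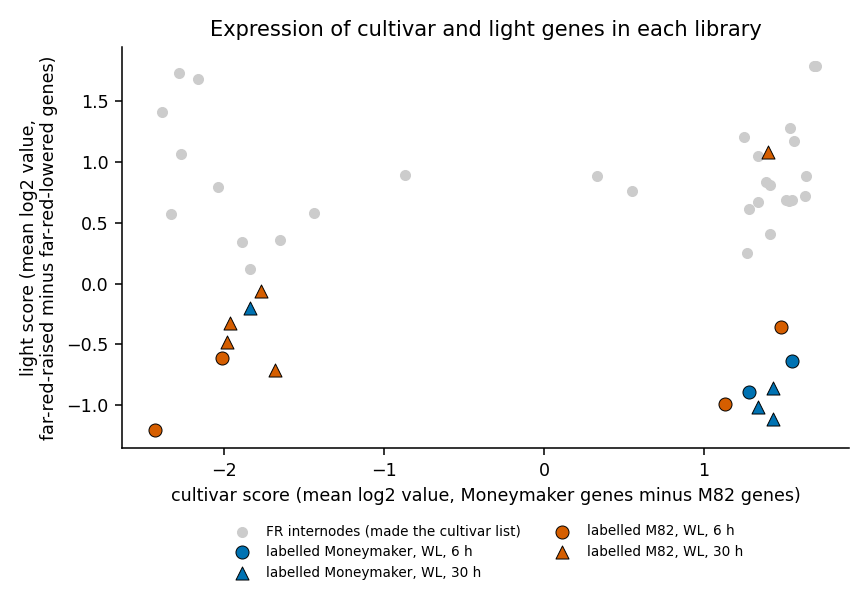
Cultivar score (horizontal, mean log2 value of Moneymaker genes minus M82 genes) against light score (vertical, mean log2 value of far-red-raised minus far-red-lowered genes), 1 point per library. Circles are WL libraries at 6 h and triangles at 30 h, blue where labelled Moneymaker and orange where labelled M82, and grey points are FR internodes. An orange triangle at a light score of 1.08 lies among the FR internodes, 3 orange points lie on the Moneymaker side and 1 blue triangle on the M82 side.

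Depth was uneven but spread over both days. Reads in listed genes ran from 1.03 to 12.9 M at 6 h and from 0.778 to 11.7 M at 30 h, with 18208 to 22687 genes detected. The library labelled M82, 6 h, replicate 3 was the deepest and stood apart. Its median Spearman correlation with the other 14 libraries, over genes, was 0.866, where theirs ran from 0.901 to 0.934. The median correlation between libraries was 0.921 within 6 h, 0.914 within 30 h and 0.912 across the days. No library pair of a group was a duplicate. The median standard deviation of a gene was 0.505 on the log2 scale at 6 h and 0.491 at 30 h.

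Between the days, no gene rose and no gene fell in WL internodes at an adjusted p below 0.05, in the limma fit of 19080 genes with cultivar as a covariate (percent called 0). The smallest adjusted p was 0.87. At an unadjusted p below 0.05 there were 893 genes, which is 4.68% of genes tested, and 954 would fall there by chance. Of these, 442 were higher (2.32%) and 451 lower (2.36%) at 30 h. The edgeR quasi-likelihood test on recovered reads also called 0 genes, with 799 at an unadjusted p below 0.05, and DESeq2 called 4, with 952. Leaving out 1 library at a time left the count at 0 in 14 of the 15 fits. Without Moneymaker, 6 h, replicate 2 it was 1, which is Solyc07g008710 below. Without the 4 libraries against a label it was 0, with 913 genes at an unadjusted p below 0.05. Without M82, 6 h, replicate 3 it was also 0, with 959. The number at an unadjusted limma p below 0.05 was less stable than the count of calls. It was 1204 with replicate number as a random block, 995 with it as a fixed block and 1185 with a quality weight for each library, each with 0 called. With 1 library left out it ran from 555, without M82, 30 h, replicate 4, to 1301, without Moneymaker, 30 h, replicate 4. It thus lay on both sides of the number expected by chance.

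The data put limits on how large a day effect could be. The median standard error of a log2 difference was 0.278, and the median size of the difference was 0.20. The 95% interval of the difference lay within 1 log2 unit of 0, a 2-fold change, for 12575 genes (65.9%). For 10549 genes the mean log2 value was 4 or more, and 9469 of these (89.8%) met that bound. Among the 3017 genes with a mean log2 value below 2 it held for 17.6%, so for most low genes the interval did not exclude a 2-fold change. These intervals are for single genes without adjustment. Meeting the bound does not mean that a 2-fold change would have been called. Differences of at least 2-fold were measured for 170 genes higher and 53 genes lower at 30 h. Of these, 131 and 40 had an unadjusted limma p below 0.05, and none was called.

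The day groups overlapped for nearly every gene. In 8 genes they did not (0.0419% of genes tested), 2 of them higher and 6 lower at 30 h, with log2 differences of 0.52 and 1.89 for the former and 0.26 to 0.77 in size for the latter. Under FR, whose libraries are separate, the 2 higher genes had a median day difference of -0.03, with 1 of 2 higher, and the 6 lower genes of -0.06, with 6 of 6 lower. At 48 against 24 h in WL 5 of these 6 were lower, again with a median of -0.06. Of all genes, 52.4% were lower under FR, with a median of -0.022. At 48 against 24 h in WL 58.3% of all genes were lower, with a median of -0.052. No gene was at 0 in every library of one day and above 0 in every library of the other. Without the 4 libraries against a label, which leaves 4 against 7, 34 genes higher and 53 lower of 19087 tested had groups that did not overlap. Smaller groups lie apart more often with no difference between the days, so this count cannot be set against the 8. How many genes chance would give was not computed for either.

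**Figure D2:**
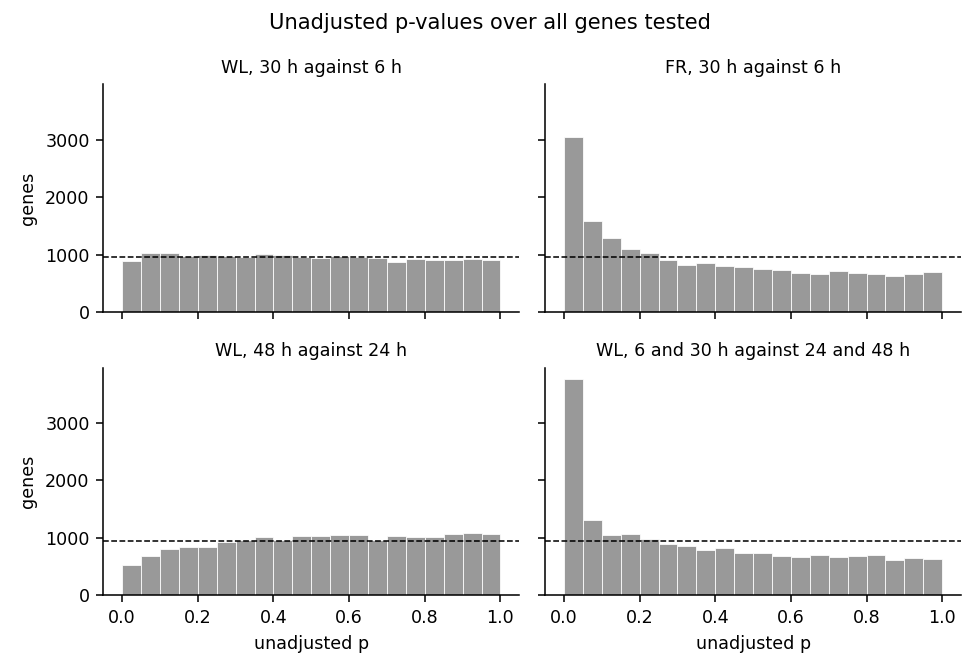
Number of genes (vertical) in each bin of unadjusted p (horizontal, width 0.05) for 4 comparisons of internodes. The dashed line is the number expected in each bin with no differences. The bins of both WL day comparisons lie near or below the line at low p, with 893 and 532 genes below 0.05, while the FR day comparison has 3040 and the comparison of hours of the day in WL has 3774.

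The genes of smallest p with at least a 2-fold change are given by value, although none was called. They were chosen after their values were seen, 2 higher and 2 lower. Values are the deposited scaled read counts, and differences are on the log2(value + 1) scale, which understates the change of low genes.

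Solyc12g042500 was at 9.33, 12.3 and 19.8 (lowest, median and highest) at 6 h and reached from 16.8 to 53.4 at 30 h. In M82 its 4 values at 6 h were 11.2, 14.6, 9.33 and 9.60, and its 5 values at 30 h were 53.4, 43.2, 21.7, 32.4 and 27.0. In Moneymaker it stood at 19.8 and 13.4 at 6 h and at 20.4, 16.8, 25.2 and 20.5 at 30 h. By label, the groups did not overlap in M82 and did overlap in Moneymaker. The log2 difference was 1.08 ± 0.25 (SE, n = 6 and 9; 95% interval 0.56 to 1.60; limma adjusted p = 0.87). By cultivar it was 1.54 ± 0.29 for M82 (adjusted p = 0.13), and for Moneymaker 0.32 ± 0.37 (adjusted p = 1). The difference between cultivars, -1.22 ± 0.47, did not pass the limma threshold (adjusted p = 1). The level at 24 h in WL was 19.9 to 49.1, so that 6 h was the lowest of the 4 times by mean log2 value.

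Solyc07g008710 ran from 22.5 to 85.3 at 6 h and from 47.5 to 274 at 30 h. In M82 the values were 31.6, 78.1, 27.1 and 32.1 at 6 h and 118, 193, 145, 274 and 200 at 30 h. In Moneymaker they were 85.3 and 22.5 at 6 h and 47.5, 64.9, 74.4 and 91.8 at 30 h. Again the M82 groups were apart and the Moneymaker groups overlapped. The log2 difference was 1.60 ± 0.35 (95% interval 0.86 to 2.34; limma adjusted p = 0.87), with 2.19 ± 0.36 for M82 (adjusted p = 0.11), and for Moneymaker 0.61 ± 0.47 (adjusted p = 1). Without Moneymaker, 6 h, replicate 2, the library at 85.3, the difference was 2.02 and passed the limma threshold (adjusted p = 0.0013). Over the fits with 1 library left out the adjusted p ran from 0.0013 to 1.

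Solyc01g006390 was a low gene, at 0.331 to 13.8 at 6 h and 0 to 6.79 at 30 h. All 5 M82 libraries at 30 h were at 0, where the 4 at 6 h held 7.44, 13.8, 1.88 and 0.331. Moneymaker gave 6.74 and 11.7 at 6 h against 0.921, 2.40, 6.79 and 1.11 at 30 h. The log2 difference was -2.0 ± 0.47 (95% interval -2.96 to -1.04; limma adjusted p = 0.87). DESeq2 put it at -4.48 with an adjusted p of 0.012, and over all alternatives the adjusted p ran from 0.012 to 1. It is 1 of the 3 genes DESeq2 called lower. At 48 against 24 h in WL it also measured lower, by -1.45 ± 0.55 (limma adjusted p = 1), and under FR the 30 h against 6 h difference was -0.12 ± 0.56 (adjusted p = 0.84).

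Solyc01g006400 was a highly expressed gene. It ran from 413 to 1270 at 6 h and from 119 to 673 at 30 h. The M82 values were 1220, 990, 529 and 413 at 6 h and 331, 230, 221, 119 and 149 at 30 h, without overlap. Moneymaker gave 1270 and 421 at 6 h and 362, 459, 673 and 314 at 30 h, which overlap. The log2 difference was -1.44 ± 0.32 (95% interval -2.12 to -0.77; limma adjusted p = 0.87), -1.86 ± 0.38 in M82 and -0.76 ± 0.49 in Moneymaker. DESeq2 gave -1.53 with an adjusted p of 0.012. At 48 against 24 h in WL the limma difference was 0.11 ± 0.35, and under FR it was -0.56 ± 0.44 at 30 against 6 h. By label, the M82 difference measured larger in size than the Moneymaker one in all 4 genes, and none of the 4 differences between cultivars passed the limma threshold. The 4 genes were chosen by p in the fit of both cultivars, to which M82 gave more libraries, so their shared direction is no test of a cultivar difference. Among libraries that scored as M82, the days overlapped for Solyc07g008710, at 78.1 and 27.1 at 6 h and 64.9 to 274 at 30 h. They also overlapped for Solyc01g006390, at 13.8 and 1.88 at 6 h and 0 to 2.40 at 30 h. For Solyc12g042500 and Solyc01g006400 they did not overlap. Among libraries that scored as Moneymaker, the days did not overlap for Solyc12g042500 either, at 9.60 to 19.8 at 6 h and 20.4 to 53.4 at 30 h. There they overlapped for Solyc07g008710, Solyc01g006390 and Solyc01g006400.

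The only gene that DESeq2 called higher was Solyc04g011750, with a log2 difference of 2.60 ± 0.59 (adjusted p = 0.046). It was at 0 to 2.24 at 6 h, with 1 library at 0, and at 2.26 to 22.8 at 30 h, so the groups met without overlapping. In M82 the 30 h values were 6.94, 17.0, 2.29, 22.8 and 15.9, and in Moneymaker they lay between 2.26 and 3.38. The limma difference was 1.89 ± 0.46 (adjusted p = 0.87), and under FR at the same hours it was 0.03 ± 0.53. The libraries at 6 h held from 0 to 25 reads of it and those at 30 h from 2 to 172. The library at 2.26 held 8 reads, so the gap between 2.24 and 2.26 is less than 1 read. The third gene that DESeq2 called lower had a log2 difference of -0.61 ± 0.13 (adjusted p = 0.03).

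**Figure D3:**
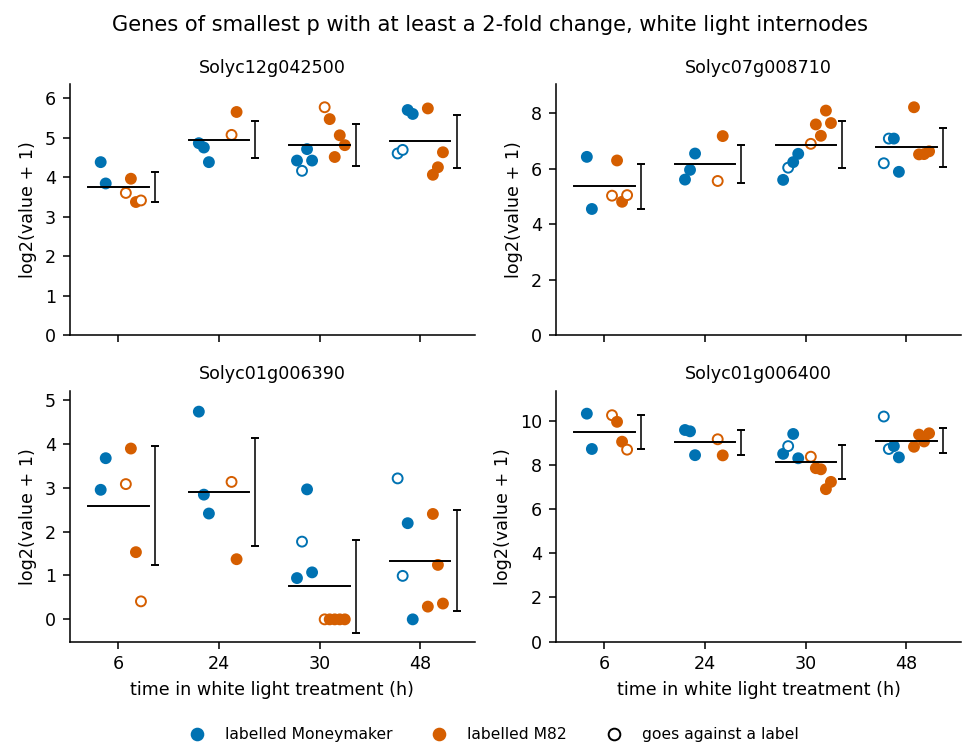
log2(value + 1) of the 2 higher and 2 lower genes of smallest p with at least a 2-fold change (vertical) in each WL internode library at 6, 24, 30 and 48 h (horizontal), blue where labelled Moneymaker and orange where labelled M82, with open points for libraries against a label. Lines are means and bars standard deviations over the libraries of a time. The points labelled M82 at 30 h lie apart from those at 6 h in all 4 panels, and the points labelled Moneymaker overlap.

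Taken by cultivar, in 1 fit with a mean for each cultivar and day, 0 genes passed in either. In Moneymaker 405 genes (2.12%; percent called 0) had an unadjusted p below 0.05 and the smallest adjusted p was 0.85. Its median standard error was 0.454, since 6 h rests on 2 libraries. In M82 there were 1301 (6.82%; percent called 0), with a smallest limma adjusted p of 0.11 and a median standard error of 0.351. The M82 count was 17 (9 higher, 8 lower) without M82, 6 h, replicate 3, the library that stood apart, and 2 without Moneymaker, 30 h, replicate 4. It was 1 each without M82, 6 h, replicate 2 or without either Moneymaker library at 6 h, 2 with the replicate block, and 25 (12 higher, 13 lower) with DESeq2. The difference of the day effect between cultivars was called for 0 genes (percent called 0), with 676 (3.54%) at an unadjusted p below 0.05 and 0 called by edgeR and DESeq2. Because 3 libraries labelled M82 and 1 labelled Moneymaker scored on the side of the other cultivar, the split by label may not follow the cultivar.

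The hour of the day was compared in the same tissue and light. With 6 and 30 h set against 24 and 48 h in the 28 WL internodes, limma called 1782 genes (9.36%), 691 higher and 1091 lower at 6 and 30 h, and 19.8% had an unadjusted p below 0.05. The median standard error was 0.198, smaller than that of the day comparison, which has fewer libraries. This comparison was added after the data were seen. The count stayed between 1429 and 2094 with any 1 library left out. Against this, 48 against 24 h, a day step at another hour whose libraries are all separate from the 15, gave 0 calls (percent called 0) with 532 genes (2.79%) at an unadjusted p below 0.05, 0 by edgeR and 1 by DESeq2. Some of those libraries also went against a label, and 1 labelled Moneymaker, 48 h had a clock score of 0.37, at the level of 6 and 30 h. Without the libraries against a label, which leaves 4 at 24 h and 6 at 48 h, the count was 0, with 431 at an unadjusted p below 0.05. The difference between the day steps at the 2 hours was called for 0 genes (percent called 0), with 977 (5.13%) at an unadjusted p below 0.05, 0 by edgeR and 1 by DESeq2.

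Over the genes that follow the hour under FR, mean levels in WL differed between the days by less than the spread between libraries. The 968 genes higher at 6 and 30 h under FR had a mean log2 value of 4.87 ± 0.16 (SD, n = 6) at 6 h and 4.86 ± 0.06 (n = 9) at 30 h in WL, against 4.12 ± 0.05 at 24 h and 4.16 ± 0.30 at 48 h. The 1271 genes lower at those hours were at 4.56 ± 0.10 and 4.57 ± 0.09 at 6 and 30 h, against 5.36 ± 0.14 and 5.25 ± 0.31 at 24 and 48 h. Their median day differences in WL were -0.011 (962 tested) and -0.010 (1236 tested), where the median over all genes was 0. At an unadjusted p below 0.05 were 5.41% of the former and 5.99% of the latter, beside 4.68% of all genes. Without the 4 libraries against a label the medians were -0.108 and -0.028. With 1 library left out the sign of the first changed in 2 fits and that of the second in 5.

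Single genes at the ends of these lists show the size of the daily swing. Solyc10g005080 was at 13.2, 19.4 and 41.8 (lowest, median, highest) at 6 h and at 7.19, 15.6 and 24.7 at 30 h, and between them at 464, 546 and 640 at 24 h. Its log2 difference between the hours in WL was -4.47 ± 0.34 (limma adjusted p = 1.3e-09), and between the days it was -0.41 ± 0.27 (adjusted p = 0.97). Solyc08g006770 went the other way, at 48.3, 65.4 and 152 at 6 h and 43.2, 63.7 and 106 at 30 h, with 2.30 to 7.15 at 24 h. The hours differed by 3.84 ± 0.34 (limma adjusted p = 4.1e-09) and the days by -0.12 ± 0.25 (95% interval -0.63 to 0.39). The 6 and 30 h groups of both genes overlapped, and neither overlapped with 24 h. Solyc02g076690, at 117 to 319 at 6 h and 158 to 423 at 30 h, and Solyc08g082590, at 7.17 to 35.4 and 12.5 to 27.5, had day differences of 0.44 ± 0.25 and -0.03 ± 0.27.

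**Figure D4:**
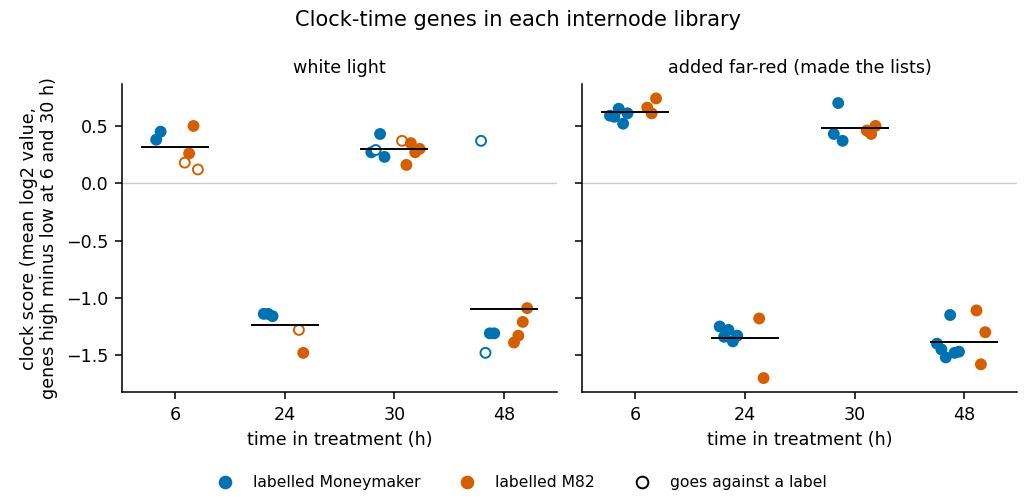
Clock score (vertical, mean log2 value of genes high at 6 and 30 h minus that of genes low then, lists made under FR) of each internode library by time (horizontal), WL on the left and FR on the right. Points are libraries coloured by cultivar label, open where against a label, and lines are group means. In WL the means are 0.31 at 6 h, 0.30 at 30 h, -1.24 at 24 h and -1.09 at 48 h, where 1 Moneymaker library at 0.37 lies at the level of 6 and 30 h.

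The same pair of times was also compared under FR. In a fit of the 29 WL and FR internodes at 6 and 30 h, limma called 65 genes between the days under FR (0.341%), 31 higher (0.163%) and 34 lower (0.178%), with 3040 (16%) at an unadjusted p below 0.05. The count rests on single libraries: leaving out 1 of the 29 moved it by over 1.5 times in 20 cases, to fewer in 18 and to more in 2. It was 1 without M82, FR, 30 h, replicate 3, 581 without Moneymaker, FR, 30 h, replicate 1, and 248 without M82, WL, 6 h, replicate 3. It was 2 without any 1 of M82, FR, 6 h, replicates 1 and 5 or Moneymaker, FR, 30 h, replicates 3 and 5. With the replicate block it was 100, and in the FR libraries alone it was 194.

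The test of the difference between WL and FR called 1 gene (0.00525%), with 1821 (9.56%) at an unadjusted p below 0.05. That gene, Solyc05g053530, was at 0 in all 6 WL libraries at 6 h and at 0 to 0.768 at 30 h, where 6 of 9 were at 0. Under FR it ran from 2.84 to 25 at 6 h, with a median of 9.69, and from 0 to 1.41 at 30 h. The groups at 6 h thus did not overlap between the lights, and the other times were near 0 in both. The gene was too low in WL to be tested there and entered the fit only through the FR libraries at 6 h. With WL near 0 on both days, the WL minus FR value of 3.24 ± 0.50 restates the FR change of -2.98 ± 0.36 and tests no day effect in WL. Without the libraries against a label no gene was called for this difference, and edgeR called 0 and DESeq2 3. The count was 2 or 3 without any 1 of 5 libraries: 3 without M82, WL, 6 h, replicate 3 or M82, WL, 30 h, replicate 1, and 2 without M82, FR, 30 h, replicate 4, Moneymaker, FR, 30 h, replicate 1 or Moneymaker, WL, 6 h, replicate 2.

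In WL the genes of the FR day lists differed less in size than under FR, which the choice of the lists under FR favours. The 31 genes called higher under FR had FR log2 differences of 0.65 to 2.83 and WL differences of -0.24 to 1.18, with a WL median of 0.521. Of these 25 were higher and 6 lower at 30 h in WL, where 50.0% of all genes were higher, and 6 (19.4%) had an unadjusted p below 0.05, beside 4.68% of all genes. The 31 are not independent: 21 have identifiers that begin with Solyc00g, and 4 pairs of these correlated (Pearson) at over 0.99 across the libraries, 1 pair with the same value in all 86. All 21 were higher in WL, with a median of 0.67, and the 6 genes with an unadjusted p below 0.05 were among them. Of the other 10 genes, 4 were higher and 6 lower, with a median of -0.07. The WL median was 0.819 without the libraries against a label and 0.219 without M82, 6 h, replicate 3. The 32 tested genes called lower under FR had FR differences of -3.09 to -0.72 and WL differences of -0.91 to 0.79. Their WL median was 0.004, with 16 higher and 16 lower, and it was -0.19 without the libraries against a label, with 26 of 32 lower. It changed sign in 9 of the 15 fits with 1 library left out.

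Solyc00g500245, 1 of those 21 genes, was at 9.03, 31.3 and 45.4 (lowest, median and highest) at 6 h and 52.0, 131 and 205 at 30 h under FR, without overlap. In WL it was at 36, 64.5 and 128 at 6 h and 54.2, 84.0 and 241 at 30 h, with overlap. The log2 differences were 2.05 ± 0.35 under FR (limma adjusted p = 0.023) and 0.49 ± 0.31 in WL (95% interval -0.18 to 1.15), and the difference between them, -1.56 ± 0.49, did not pass (adjusted p = 0.44). Solyc12g044230, called lower under FR, fell from a median of 74.2 to 42.8 there, by 1.01 on the log2 scale, and had a WL difference of 0.10 ± 0.18 with medians of 49.0 and 56.6. The WL minus FR difference of this gene, 1.11 ± 0.26, had a limma adjusted p of 0.42. Solyc00g500107, a low gene also among the 21, measured 2.40 ± 0.46 under FR and 0.53 ± 0.44 in WL.

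**Figure D5:**
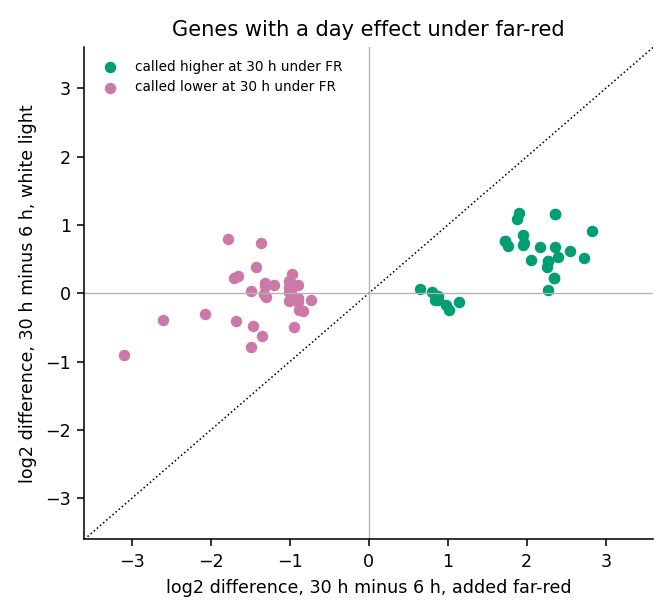
log2 difference of 30 h minus 6 h under FR (horizontal) and in WL (vertical) for the 63 genes called under FR that were tested in WL, green where higher and pink where lower under FR. The dotted line marks equal differences. All points lie nearer to 0 in WL than under FR, between -0.91 and 1.18 in WL and between -3.09 and 2.83 under FR.

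No gene of the other lists was called between the days in WL. Of the 154 tested genes that FR raised at 24 and 48 h, 114 measured higher at 30 h, with a median of 0.125, and of the 209 that FR lowered, 156 measured lower, with a median of -0.259, where all genes split 50.0% to each side. An unadjusted p below 0.05 was found for 5.19% and 15.8% of them, beside 4.68% of all genes. Genes of a list can vary together between libraries, so these shares do not count independent changes, and they were not tested. The libraries at 30 h hold the one at the FR level of the light score, and without that library, M82, 30 h, replicate 1, the medians were 0.056 and -0.188. Without Moneymaker, 6 h, replicate 5 the first was 0.199, and without all 4 libraries against a label they were 0.086 and -0.173. The mean light score was -0.78 ± 0.30 (SD, n = 6) at 6 h and -0.41 ± 0.66 (n = 9) at 30 h, and -0.83 ± 0.27 (n = 4) and -0.65 ± 0.38 (n = 7) without the 4 libraries.

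The 395 tested genes lower in pith under FR had a median of 0.025, yet 38 of them were higher and 26 lower at an unadjusted p below 0.05, 16.2% beside 4.68% of all genes. The 136 higher in pith had a median of 0.056 and 7.35% at that level. As for the light lists, the genes of a list can vary together, and the shares were not tested. Neither median had a stable sign: with 1 library left out the first ran from -0.031 to 0.122 and the second from -0.005 to 0.118, each with the sign changed in 2 of 15 fits, and without the 4 libraries against a label they were -0.075 and 0.022. The mean pith score, genes higher in pith minus genes lower, was 0.51 ± 0.31 at 6 h and 0.53 ± 0.22 at 30 h. The Moneymaker genes had a median of -0.247 (66 tested) and the M82 genes of 0.483 (79 tested). These were 0.119 and -0.141 without the 4 libraries against a label, and 0.172 and -0.062 with the fixed replicate block and all 15 libraries, so their sign changed under both. Whether mixed labels hide differences between the days in the other genes was not tested beyond leaving these libraries out.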

How the data were processed

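Per the labels' protocols, polyA RNA of internodes was made into libraries with random primers. The submitters' processing notes name FastQC, Trim Galore, STAR and featureCounts. Their versions, the build, annotation, strand setting and scaling method remain not given in the sources used here. Values are signal as the authors deposited it, meaning read counts that were scaled with 1 factor for each library. Dividing by the smallest nonzero value gave whole reads within 0.02 for 100% of nonzero values below 2000 reads in the 15 libraries, and their sums ran from 877851 to 1153592.

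Genes whose mean over the compared libraries was 1 or more were fitted with limma 3.58.1 (trend and robust options, R 4.3.3) on the log2(value + 1) scale, with cultivar as covariate, Benjamini-Hochberg over all genes tested and calls below 0.05. edgeR 4.0.16 and DESeq2 1.42.0 on recovered reads, other scalings, filters, blocks and left-out libraries were alternatives. The procedure was run on simulated counts with changes larger than 2-fold, planted in well-expressed genes only. The simulation held no batch, no wrong label and no library that stood apart, so it cannot show how small a change would be found here. Intervals cover the spread between libraries.

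Members and gene lists were chosen with earlier results of these data known. Genes were to be named among those called; none was, so those of smallest p that changed 2-fold or more and averaged 1 or more in log2 value are given, with those most changed by hour and under FR. Lists by gene name could not be applied. Per the series design, plants with 1 replicate number were of the same batch, which pairs samples. Residuals of the 5 pairs of the same cultivar and number across the days correlated by 0.16 on average (0.033 to 0.35), against -0.035 for the 23 other pairs. No column lacked a sample. Genes with near-identical copies or antisense partners cannot be told apart.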

Additional observations from a re-analysis of the deposited data

Results flagged for a closer look

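Over 27 groups of values screened, 4 samples lay farther from their group than Dixon's 95% limit, where chance gives about 1 in 20 groups. The library labelled M82, 6 h, replicate 3 held 12.9 M reads, where the other 3 of its group held 1.03 to 2.88 M. The library labelled M82, 30 h, replicate 1 had a cultivar score of 1.40, where the others lay between -1.98 and -1.68. The library labelled Moneymaker, 30 h, replicate 3 had a cultivar score of -1.84, where the others lay between 1.34 and 1.43. Solyc07g008710 had a log2 value of 6.30 in the library labelled M82, 6 h, replicate 2, where the others lay between 4.81 and 5.05. The fitted day effect of Solyc05g053530 was higher in WL than under FR by 3.24 on the log2 scale, with 6 of 6 WL libraries at 6 h at 0 and 8 of 8 FR libraries above 0. The gene was too low for a test in WL, so this value restates its change under FR.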

How the results depend on the processing

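The count of 0 genes between the days in WL held under 11 of 12 alternatives, the fixed and random replicate block included, and DESeq2 gave 4. With 1 library left out it ran from 0 to 1, in Moneymaker from 0 to 1 and in M82 from 0 to 17. Without Moneymaker, 6 h, replicate 2, which gave both counts of 1, that cultivar keeps 1 library at 6 h, which is assumed to vary like the other groups. M82 alone gave 25 with DESeq2 and 2 with the random replicate block. The FR day count of 65 was 31 with a pseudocount of 0.25, 129 with edgeR, 566 with DESeq2, 100 with the random replicate block, 138 without libraries against a label, 194 in FR libraries alone and 1 to 581 with 1 library left out. The WL minus FR count of 1 was 0 with edgeR and without libraries against a label, 3 with DESeq2, 2 with the random replicate block and 1 to 3 with 1 library left out. DESeq2 gave 1 for 48 against 24 h and 1 for the difference between hours. Counts for the hour of the day in WL ran from 1587 to 2104 over its 5 alternatives, and from 1429 to 2094 with 1 library left out. With the random replicate block the hour count was 2062 in place of 1782. The random block left the other counts, all 0, as they were. The FR-alone fit, the left-out libraries for FR, 48 against 24 h and hours, and the hour comparison were chosen after seeing the data. The causes of these shifts were not tested. Depth under 1 M reads in 1 library and 2 Moneymaker libraries at 6 h limit what could be detected.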
